A study of Mus musculus with 12 samples.

Results

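The genes described here are those of Wnt signaling at the cell surface: the Wnt ligands, the R-spondins, the receptors and co-receptors, and the secreted antagonists. They were the rows of the count table whose symbol starts with Wnt, Fzd, Sfrp, Rspo or Dkk followed by a digit, with Lgr4, Lgr5, Lgr6, Wif1, Lrp5 and Lrp6. This gave 47 of the 23420 genes in the table: 19 ligands, 4 R-spondins, 15 receptors and 9 antagonists. RNA was sequenced from 4 adipose depots of untreated male C57BL/6 mice aged 8 weeks, housed at ambient temperature, with 3 libraries per depot and 12 in all. Brown fat was sampled from between the shoulder blades (interscapular, iBAT) and from above the collarbone (supraclavicular, scBAT), and white fat from the groin (inguinal, iWAT) and from beside the testis (epididymal, eWAT). Every group was of the same strain, sex, age and treatment, so the depots are the only groups. The labels do not say whether the libraries of a depot came from separate or pooled mice, and the p-values measure the spread between these libraries, which may be technical.

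Wnt proteins are secreted, lipid-modified signals that bind Frizzled (Fzd) receptors on nearby cells. With the co-receptors Lrp5 and Lrp6, a bound Frizzled stops the breakdown of beta-catenin, which then acts with TCF and LEF factors in the nucleus; other Wnt signals run without beta-catenin. R-spondins (Rspo) bind the receptors Lgr4, Lgr5 and Lgr6 and keep Frizzled at the cell surface. The antagonists Sfrp and Wif1 bind the ligands, whereas Dkk1, Dkk2 and Dkk4 bind the co-receptors. Dkk3, a divergent Dickkopf protein, was counted with the antagonists by its name only. In fat, Wnt signals through beta-catenin are known to hold back the formation of adipocytes from their progenitors.

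The promoters of the 3 members whose depot differences were among the largest are shown first: Lgr6 and Rspo4, which were highest in brown fat, and Rspo1, which was highest in epididymal fat. The sequences come from RefSeq on GRCm38.p6 and are the 250 bases before the annotated start, 5′ to 3′ on the strand of the gene. They lie at chr1:135105277-135105526 on the minus strand (Lgr6), chr2:151842677-151842926 on the plus strand (Rspo4) and chr4:124986180-124986429 on the plus strand (Rspo1). Capitals mark any match to the motifs searched.
Lgr6: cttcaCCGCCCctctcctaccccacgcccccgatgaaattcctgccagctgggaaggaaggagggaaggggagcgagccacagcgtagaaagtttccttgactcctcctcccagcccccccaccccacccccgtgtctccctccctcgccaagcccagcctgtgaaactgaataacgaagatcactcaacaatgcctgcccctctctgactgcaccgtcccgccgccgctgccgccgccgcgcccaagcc
Rspo4: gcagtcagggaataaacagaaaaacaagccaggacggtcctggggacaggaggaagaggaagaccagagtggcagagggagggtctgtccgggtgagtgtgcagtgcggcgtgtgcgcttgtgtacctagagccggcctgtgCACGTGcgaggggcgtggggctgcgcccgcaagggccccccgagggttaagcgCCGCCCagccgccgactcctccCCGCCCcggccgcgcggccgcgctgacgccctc
Rspo1: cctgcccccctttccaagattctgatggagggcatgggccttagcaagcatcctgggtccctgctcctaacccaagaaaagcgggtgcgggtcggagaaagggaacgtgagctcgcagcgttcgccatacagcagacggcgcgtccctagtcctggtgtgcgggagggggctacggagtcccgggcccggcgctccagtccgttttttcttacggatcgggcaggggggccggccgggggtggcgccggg
Matches were sought on both strands for 6 strings. The TCF/LEF core was searched as CTTTGAA and also as CTTTGAT, the E-box as CACGTG, and the GC box as GGGCGG. The CCAAT box and the TATA box, spelled TATAAA, were searched as well. Lgr6 held 1 GC box, which begins 245 bases before its start, and Rspo1 held none of the 6 strings. Rspo4 held 2 GC boxes, which begin 55 and 33 bases before its start, and 1 E-box, and no matches overlapped. The tables held 33 promoters of 30 of the 47 members. GGGCGG was in 69.7% of these and in 32.7% of all 32851 promoters, while the median GC content was 66.8% against 52.4%. The TCF/LEF strings were in 3.03% (CTTTGAA, Dkk1) and 6.06% (CTTTGAT, Wnt11 and Wnt5b) of member promoters, against 4.46% and 3.21% of all. A match is only a string of letters in this window, and an absent match says nothing of any factor.

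Levels are given as CPM, counts scaled to a common library size, and differences as log2 values from edgeR with the standard error (SE). A gene is called where its p-value, adjusted over all 14898 tested genes of a comparison, was under 0.05. Total counts ran from 17159401 to 29262554 per library. The brown and white labels matched the thermogenic marker Ucp1, at 1559 to 2399 CPM in the brown libraries and 15.7 to 87.7 CPM in the white ones. Libraries 1 and 3 of iWAT stood apart: their summed B cell markers (9 genes) were 1540 and 2121 CPM, against 89.7 CPM in iWAT 2 and no more than 45.2 CPM outside iWAT. Spread within a depot, as the biological coefficient of variation, was 42.6% in iWAT and 12.1%, 15.7% and 17.5% in iBAT, scBAT and eWAT. In whole tissue, more cells of a type and more RNA per cell cannot be told apart.

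Of the 47 members, 33 had enough counts to be tested, and these 33 are the base of the counts of called members in the fit reported here. The other 14 were Wnt1, Wnt3, Wnt3a, Wnt7a, Wnt7b, Wnt8a, Wnt8b, Wnt9b, Wnt10a, Wnt16, Rspo2, Dkk1, Dkk4 and Wif1. Wnt3a and Wnt8a had 0 counts in all 12 libraries. All 15 receptors were tested, against 9 of 19 ligands, 3 of 4 R-spondins and 6 of 9 antagonists.

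Per kilobase of merged exon, Fzd4, a Frizzled that also serves the ligand norrin, was the most abundant member in each depot, at 50.2, 47.0, 40.8 and 74.1 CPM per kb in iBAT, scBAT, iWAT and eWAT. Receptors made up most of the members' summed level in every depot, at 113 ± 4.39, 105 ± 5.27, 90.1 ± 42.0 and 150.2 ± 11.1 CPM per kb (SD, n = 3 for each depot, same order). Summed antagonists were 4.69 ± 1.61 and 7.85 ± 0.564 CPM per kb in iBAT and scBAT and 30.9 ± 15.9 and 38.8 ± 6.68 CPM per kb in iWAT and eWAT. R-spondins summed to 22.1 ± 1.32 CPM per kb in eWAT and to between 1.31 and 1.45 in the other depots, and Rspo1 accounted for 21.2 of the eWAT value. Summed ligands were 20.7 ± 0.704 CPM per kb in eWAT and between 8.26 and 9.02 elsewhere. Both sums thus set eWAT above the other 3 depots, whereas the mean antagonist sum set both white depots above both brown ones.

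Brown fat was compared with white fat as the mean of iBAT and scBAT minus the mean of iWAT and eWAT. In brown fat Lgr6, Rspo4, Fzd9, Wnt11 and Fzd7 were higher, and 19 members were lower, among them all 6 tested antagonists. The remaining 9 tested members were not called. Of all tested genes 69.4% were called in this comparison (31.3% higher and 38.1% lower), so the 72.7% of members called is close to the background. The median difference was -0.84 over the tested members and -0.11 over all tested genes. Brown and white libraries did not overlap for 13 of the 33 members (39.4%), against 45.1% of all tested genes.

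**Figure D1:**
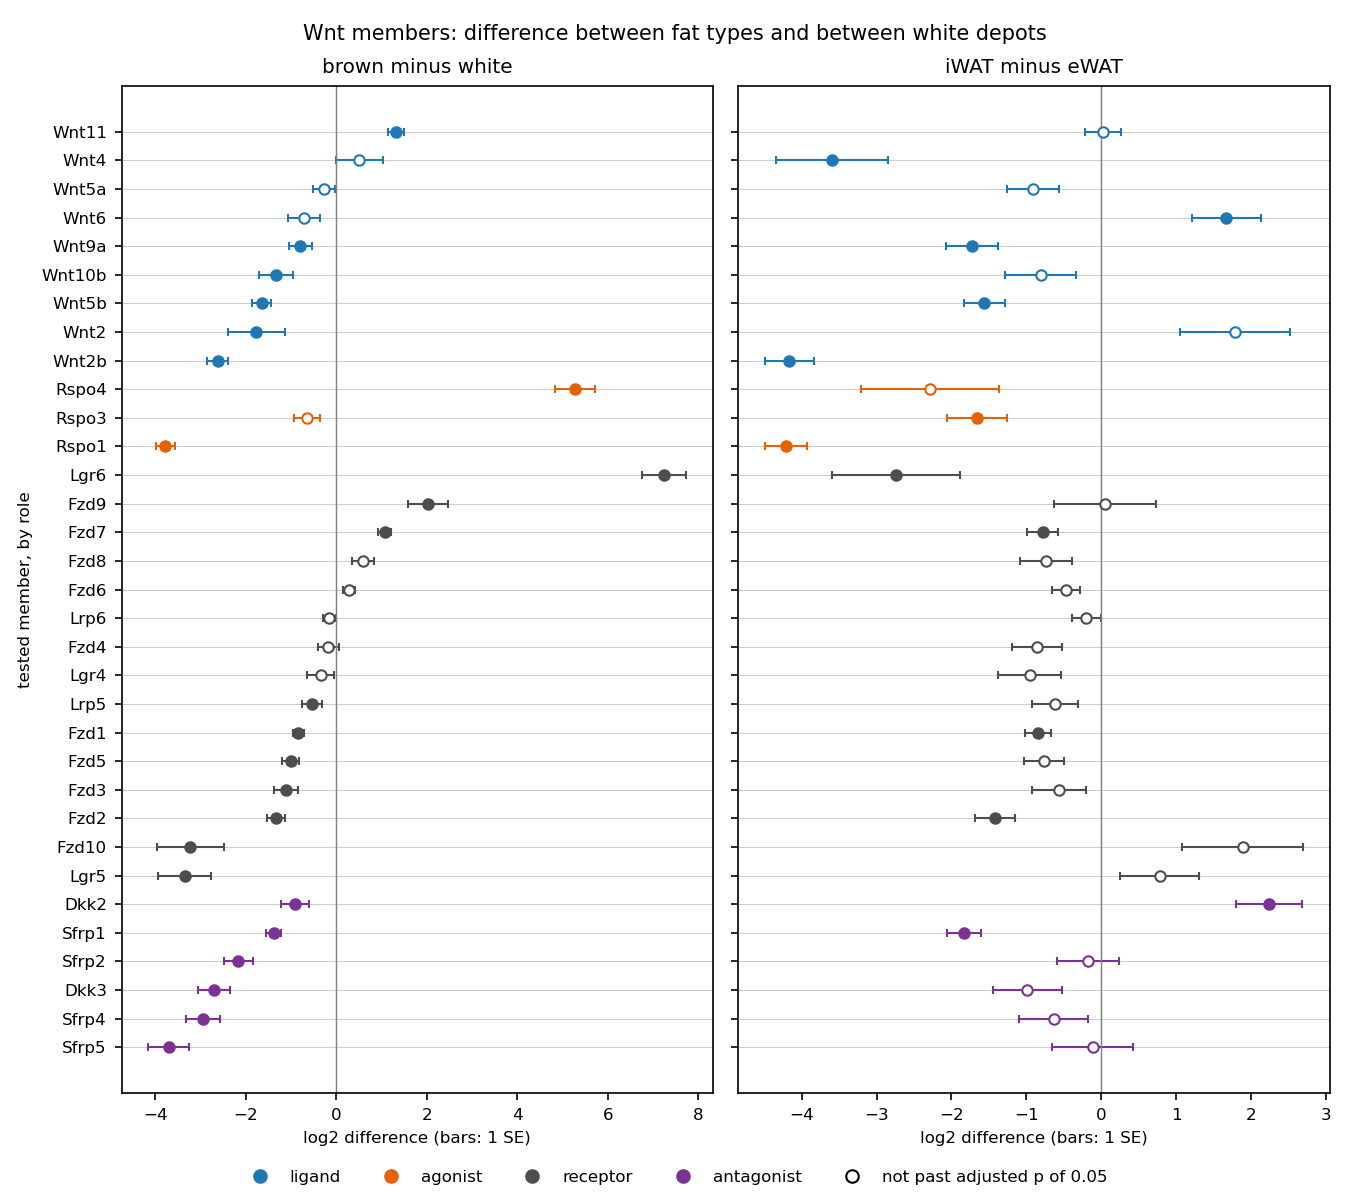
Log2 difference with 1 SE for the 33 tested members, grouped by role, for brown minus white (left) and iWAT minus eWAT (right); filled points passed an adjusted p of 0.05. All 6 antagonists lie left of 0 in the left panel, Lgr6 is farthest to the right at 7.25, and Rspo1 and Wnt2b lie near -4 in the right panel.

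Lgr6, the R-spondin receptor on chr1:134983301-135105276 (minus strand), had the largest difference of any member. Its level was 78.7, 68.2 and 23.8 CPM in iBAT, 34.2, 15.5 and 38.4 CPM in scBAT, 0.176, 0.0880 and 0.0329 CPM in iWAT and 0.390, 1.07 and 0.627 CPM in eWAT. The lowest brown library was thus far above the highest white one, and the brown libraries themselves varied widely. The log2 difference of brown minus white was 7.25 (SE 0.48, adjusted p = 4.68e-07). Only 8 Lgr6 counts fell in the 3 iWAT libraries together, and the ratio to iWAT was 585 for iBAT (95% exact counting interval 296 to 1356) and 294 for scBAT (149 to 681). Per kilobase, Lgr6 ranked 4 of 47 members in iBAT and 7 in scBAT, and 31 in eWAT. Within brown fat, scBAT minus iBAT was -0.96 (adjusted p = 0.949), and the depots overlapped.

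Rspo4, an R-spondin known for its role in nail growth, lies on chr2:151842927-151874668 (plus strand) and had the same order at a much lower level. It and the other members under 5 CPM described below, unless selective for a depot, were chosen after their values were seen. Rspo4 was at 1.41, 2.61 and 1.55 CPM in iBAT, 1.74, 1.1204 and 0.888 CPM in scBAT, 0, 0 and 0.0329 CPM in iWAT and 0.0355, 0.0793 and 0.1254 CPM in eWAT. Brown and white libraries did not overlap, at a difference of 5.28 (SE 0.45, adjusted p = 2.37e-06). The iWAT value rests on 1 count in all, which gives an iBAT to iWAT ratio of 151 with a counting interval of 26.4 to 6028.

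Fzd7, a Frizzled receptor, was at 50.5, 44.0 and 58.7 CPM in iBAT, 49.4, 53.8 and 44.2 CPM in scBAT, 16.6, 25.3 and 12.9 CPM in iWAT and 31.5, 32.2 and 30.4 CPM in eWAT. The order was brown, then eWAT, then iWAT, with no overlap between those 3 sets of libraries. Brown minus white was 1.07 (SE 0.15, adjusted p = 9.33e-05). Wnt11, a ligand known mainly for signals that run without beta-catenin, was at 14.1, 17.9 and 12.3 CPM in iBAT, 14.3, 13.3 and 14.3 CPM in scBAT, 5.24, 4.01 and 8.00 CPM in iWAT and 6.50, 5.39 and 5.17 CPM in eWAT. It was the only ligand higher in brown fat in this fit, by 1.33 (SE 0.17, adjusted p = 5.33e-05), and none of its brown libraries overlapped a white one. Fzd9 was also higher (2.03, SE 0.45, adjusted p = 0.00198), but at 1.62 CPM or less in every library and with overlap between brown and white.

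**Figure D2:**
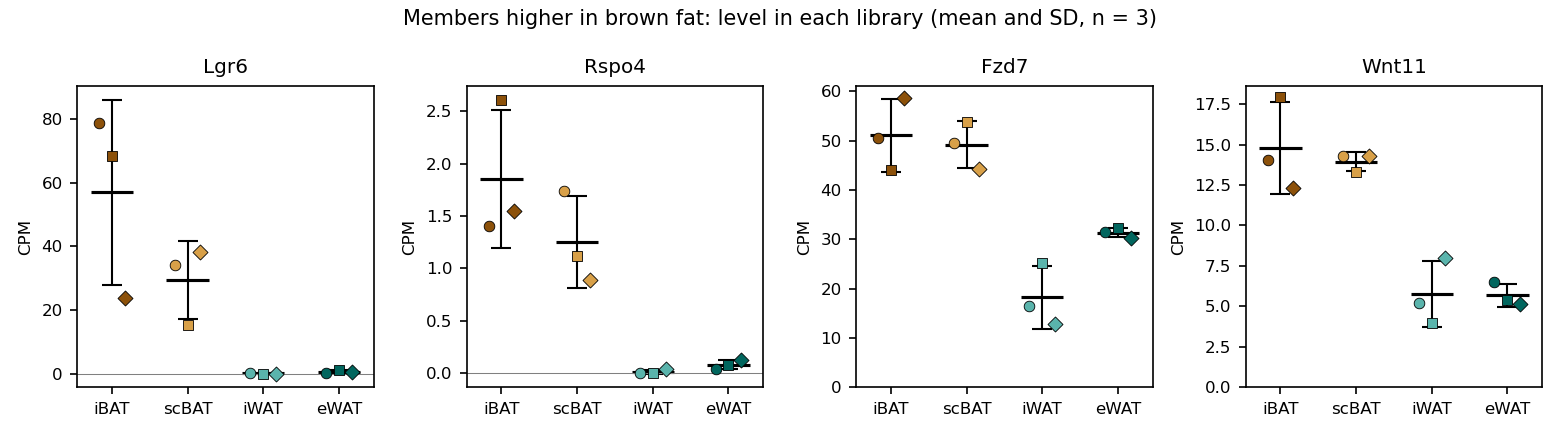
CPM of Lgr6, Rspo4, Fzd7 and Wnt11 in each library (points; circle, square and diamond are libraries 1, 2 and 3), with the mean (bar) and SD of each depot, n = 3. All 6 brown libraries lie above all 6 white ones in each panel, and Fzd7 is lower in iWAT than in eWAT.

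Markers of tissue next to the pads also differed between brown and white libraries. Summed skeletal muscle markers were 409 to 4495 CPM in the brown libraries and 76.5 to 209 CPM in the white ones, and all 8 markers were called higher in brown fat. Muscle markers were at 409, 579 and 1525 CPM in iBAT 1, 2 and 3 and at 4495, 1579 and 1388 CPM in scBAT. Salivary gland markers were called higher in brown fat for all 4 tested, with sums of 641, 1079 and 1390 CPM in iBAT and 8700, 14212 and 3202 CPM in scBAT. Their sums were 328, 573 and 176 CPM in iWAT and 479, 3248 and 473 CPM in eWAT. The sum in eWAT 2 was thus above every iBAT library and scBAT 3, and brown and white libraries overlapped for all 4 markers. The part of muscle and gland in the Lgr6, Rspo4, Fzd7 and Wnt11 differences was not tested.

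All 6 tested antagonists were lower in brown fat. Sfrp5, a decoy for Wnt ligands that adipocytes are known to secrete, was at 1.53, 3.06 and 2.26 CPM in iBAT, 2.05, 1.90 and 1.97 CPM in scBAT, 27.0, 46.2 and 6.81 CPM in iWAT and 34.7, 15.3 and 36.4 CPM in eWAT. Every white library was above every brown one, at -3.70 (SE 0.45, adjusted p = 3.27e-05). Per kilobase it was the second most abundant member in iWAT and the fourth in eWAT.

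Sfrp2 was at 1.16, 2.93 and 5.10 CPM in iBAT, 8.08, 9.97 and 8.69 CPM in scBAT, 20.9, 32.8 and 12.6 CPM in iWAT and 25.1, 22.8 and 26.7 CPM in eWAT. Its levels formed 3 steps without overlap, iBAT, then scBAT, then white fat, and brown minus white was -2.16 (SE 0.31, adjusted p = 0.000124). Sfrp4 was at 0.244, 0.446 and 0.646 CPM in iBAT, 1.68, 1.18 and 1.21 CPM in scBAT, 4.25, 8.45 and 1.84 CPM in iWAT and 8.70, 5.75 and 8.09 CPM in eWAT. It showed the same steps, at -2.95 (SE 0.38, adjusted p = 5.01e-05).

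Dkk3, a divergent Dickkopf protein, was at 0.856, 1.40 and 1.36 CPM in iBAT, 2.11, 0.896 and 0.698 CPM in scBAT, 6.75, 2.24 and 7.90 CPM in iWAT and 10.01, 11.2 and 12.3 CPM in eWAT. White libraries were all above brown ones, narrowly so for iWAT 2, at -2.70 (SE 0.36, adjusted p = 6.51e-05). Sfrp1 was also lower in brown fat, at -1.38 (SE 0.16, adjusted p = 2.78e-05), but iWAT and brown libraries overlapped. Its values are given with the eWAT members below. Dkk2 was at 0.428, 1.15 and 0.969 CPM in iBAT, 1.86, 1.79 and 1.65 CPM in scBAT, 3.76, 8.36 and 2.96 CPM in iWAT and 0.994, 1.31 and 0.878 CPM in eWAT. It was high in iWAT alone among the depots, and its brown minus white difference was -0.91 (SE 0.31, adjusted p = 0.0231). That call was lost without iBAT 1, scBAT 3 or eWAT 2 and in limma-voom (adjusted p of 0.0510 to 0.0693).

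**Figure D3:**
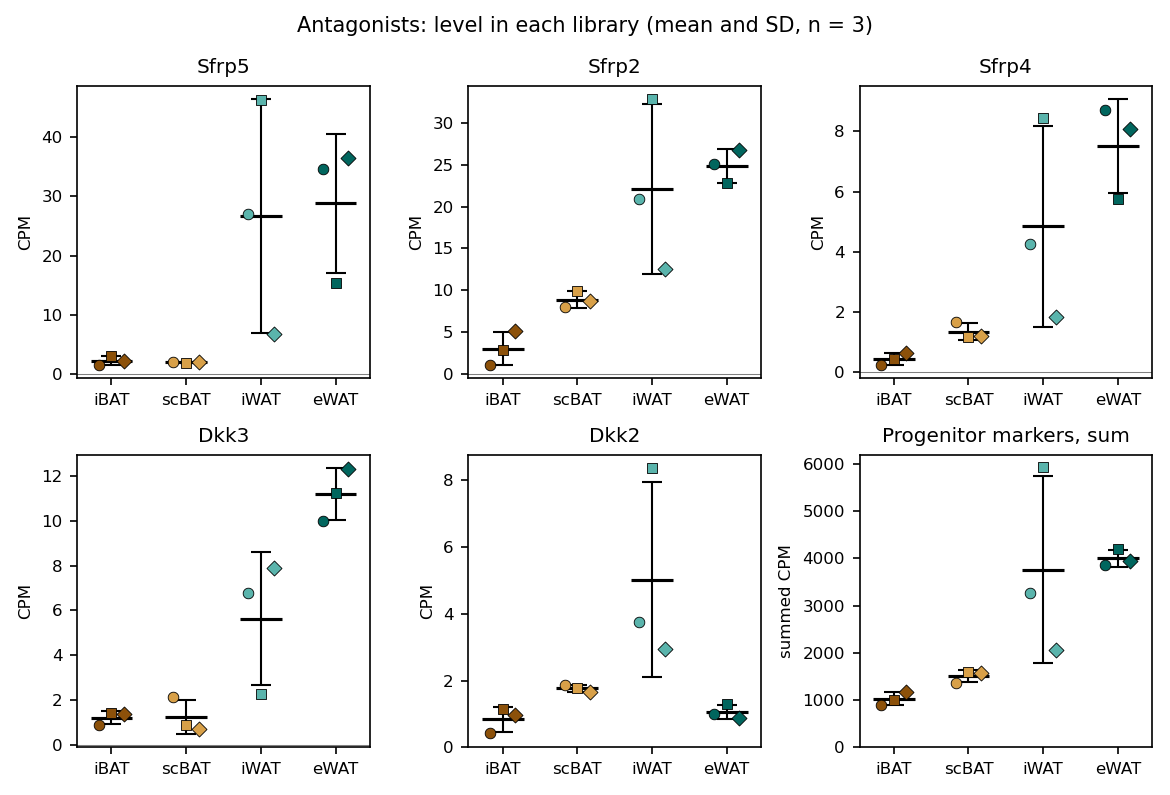
CPM of 5 antagonists and the summed CPM of 9 adipose progenitor and fibroblast markers in each library (points; circle, square and diamond are libraries 1, 2 and 3), with the mean (bar) and SD of each depot, n = 3. Sfrp5, Sfrp2 and Sfrp4 are highest in library 2 among the iWAT libraries, as is the marker sum, and Dkk3 is lowest there.

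The summed progenitor and fibroblast, macrophage and white adipocyte markers were also lower in brown than in white libraries. Dkk2 in eWAT and Sfrp1 in iWAT overlapped the brown libraries, and some single markers overlapped too. Brown and white libraries did not overlap for 7 of 9 progenitor and fibroblast, 4 of 5 macrophage and 3 of 4 white adipocyte markers. The progenitor and fibroblast sum was 903 to 1173 CPM in iBAT and 1370 to 1593 CPM in scBAT, against 3272, 5930 and 2066 CPM in iWAT 1, 2 and 3 and 3852 to 4195 CPM in eWAT. Of the 9 markers 8 were called lower in brown fat and none higher. In iWAT, Sfrp5, Sfrp2, Sfrp4 and Dkk2 were all highest in library 2 and lowest in library 3, which is the order of the progenitor and fibroblast sum. Of its markers, Dpp4 and Thy1 had the reverse order, lowest in library 2 and highest in library 3. The summed pan-adipocyte markers had the order of the sum too, at 8733, 14252 and 5638 CPM. Macrophage markers summed to 149.5 to 186.6 CPM in iBAT and 257.4 to 295.9 CPM in scBAT. They summed to 1254, 955.6 and 1242 CPM in iWAT 1, 2 and 3 and to 967.2 to 1039 CPM in eWAT. All 5 tested were called lower in brown fat. Within iWAT this sum was lowest in library 2, where Sfrp5, Sfrp2, Sfrp4 and Dkk2 were highest. White adipocyte markers summed to 161.5 to 515.6 CPM in the brown libraries, 2013, 3566 and 965.2 CPM in iWAT and 3053 to 3722 CPM in eWAT, and all 4 were called lower in brown fat. The part of these cell types in the differences was not tested.

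Among the ligands, Wnt2b, Wnt5b, Wnt9a, Wnt2 and Wnt10b were lower in brown fat. Wnt10b, a ligand known to block adipocyte formation, was at 0.672, 0.191 and 0.194 CPM in iBAT, 1.62, 1.01 and 0.952 CPM in scBAT, 1.20, 1.94 and 0.625 CPM in iWAT and 2.56, 2.18 and 1.82 CPM in eWAT. Brown and white overlapped, at -1.33 (SE 0.37, adjusted p = 0.00764). Wnt2 was at 3.35 CPM in iWAT 2 and at most 0.844 CPM in every other library. Its brown minus white difference was -1.77 (SE 0.63, adjusted p = 0.0270), and the call was lost without iBAT 1, iBAT 2, scBAT 3 or eWAT 3 and in limma-voom (adjusted p of 0.0555 to 0.0681). Wnt5a, a ligand of the branch without beta-catenin, was the most abundant ligand per kilobase in iWAT at 2.49 CPM per kb. It ranged from 17.6 to 25.8 CPM over the brown libraries, was 18.9, 31.0 and 8.53 CPM in iWAT and 33.4 to 38.4 CPM in eWAT, and was not called. Wnt4 and Wnt6 were not called in this comparison either.

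Among the receptors, Fzd1, Fzd2, Fzd3, Fzd5, Fzd10, Lgr5 and Lrp5 were lower in brown fat. Fzd5 was at 9.96, 8.22 and 5.68 CPM in iBAT, 7.95, 5.99 and 6.79 CPM in scBAT, 10.2, 13.6 and 10.4 CPM in iWAT and 13.0, 20.1 and 25.0 CPM in eWAT. The white libraries were all higher, at -1.004 (SE 0.19, adjusted p = 0.000779). Fzd3 was at 2.26, 2.23 and 3.81 CPM in iBAT, 2.11, 2.46 and 1.97 CPM in scBAT, 4.92, 6.16 and 2.04 CPM in iWAT and 6.07, 7.18 and 6.08 CPM in eWAT. Only iWAT 3 overlapped the brown libraries, and the difference was -1.11 (SE 0.26, adjusted p = 0.00325).

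Lgr5, the stem cell marker of gut and hair follicle, was at the opposite side from Lgr6: the 3 libraries of iBAT held 3 counts and those of scBAT 1, while those of iWAT held 46 and those of eWAT 28. It was at most 0.668 CPM in any library, and the difference was -3.35 (SE 0.59, adjusted p = 0.00045). Lgr4, the third of these receptors, was at 42.0 to 67.0 CPM in brown libraries, 33.2, 81.4 and 18.8 CPM in iWAT and 67.5, 84.7 and 106 CPM in eWAT, and was not called. The Lgr receptors therefore differed in order: Lgr6 was called higher in brown fat, Lgr5 lower, and Lgr4 neither. The co-receptor Lrp6, at 171 to 200 CPM in brown and 141 to 253 CPM in white libraries, was not called. Lrp5 was called at -0.54 (SE 0.22, adjusted p = 0.0475), but the call was lost in 15 of 19 alternatives. Among these were the fits without any 1 library other than iWAT 3, with adjusted p of 0.0506 to 0.112.

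The pair of brown depots was compared as scBAT minus iBAT. No member was called in either direction by edgeR, DESeq2 or limma-voom, where edgeR called 0.329% of all tested genes (0.235% higher and 0.094% lower). At an unadjusted edgeR p under 0.05, 5 members were higher in scBAT and 0 lower (Sfrp2, Wnt10b, Wnt4, Sfrp4 and Dkk2), against 4.64% of all tested genes higher and 1.09% lower. Their differences were 1.54 for Sfrp2 (adjusted p = 0.367), 1.73 for Wnt10b (0.463), 2.12 for Wnt4 (0.517), 1.60 for Sfrp4 (0.580) and 1.06 for Dkk2 (0.809), each with no overlap between depots. In all, 8 of 33 members (24.2%) did not overlap, against 16.8% of all tested genes. In data simulated from these counts, the same fit recovered 30 of 50 genes changed 2-fold and 90 of 100 changed 4-fold in this comparison. Smaller differences were thus often not detectable. The recovered numbers were not split by count level. They may be too high for sparse members such as Wnt4 (274 counts in all) and Wnt10b (358). Progenitor and fibroblast markers were also higher in scBAT, without overlap for 9 of 9 (median difference 0.54, 0 called), as were macrophage markers for 5 of 5 (median 0.87, 1 called). The part of these cells in the member differences was not tested.

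The pair of white depots was compared as iWAT minus eWAT. It shares its libraries with brown minus white, so the results of both are not independent. Of the 33 tested members 11 were lower in iWAT and 2, Dkk2 and Wnt6, were higher. Of all tested genes 28.7% were called (17.7% higher and 11% lower), against 39.4% of the members. The median difference was -0.78 over the members and -0.00051 over all tested genes. By role, 4 of 9 ligands, 2 of 3 R-spondins, 4 of 15 receptors and 1 of 6 antagonists were lower in iWAT. The libraries of the depots did not overlap for 19 members (57.6%), against 34.9% of all tested genes. In a fit of iWAT and eWAT alone, Rspo1, Wnt2b and Sfrp1 were the only members still called.

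Rspo1, on chr4:124986430-125009099 (plus strand), was at 43.4, 38.2 and 41.8 CPM in eWAT, 3.02, 1.28 and 2.34 CPM in iWAT, 0.672, 0.637 and 0.517 CPM in iBAT and 0.994, 0.672 and 0.698 CPM in scBAT. The 3 eWAT libraries were close together and far above the rest, and every iWAT library was above every brown one. Its iWAT minus eWAT difference was -4.21 (SE 0.28, adjusted p = 5.83e-05). Both brown depots were also below iWAT, at -1.86 for iBAT minus iWAT (adjusted p = 0.000478) and -1.49 for scBAT minus iWAT (adjusted p = 0.00151). Per kilobase, Rspo1 ranked second of all members in eWAT, after Fzd4.

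Wnt2b, a ligand of the beta-catenin branch on chr3:104945272-104961921 (minus strand), was at 33.3, 35.2 and 37.1 CPM in eWAT, 2.74, 1.23 and 1.88 CPM in iWAT, 1.71, 1.15 and 1.16 CPM in iBAT and 1.74, 1.51 and 0.825 CPM in scBAT. It differed from Rspo1 in that the 3 depots other than eWAT overlapped, and iBAT minus iWAT was -0.54 (adjusted p = 0.165). The iWAT minus eWAT difference was -4.16 (SE 0.32, adjusted p = 0.000125). Its brown minus white call (-2.62, SE 0.23, adjusted p = 3.23e-06) therefore came with a high level in eWAT only.

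Members were also tested for being higher in a depot than in each of the other 3. By this rule 8 members were selective for eWAT: Rspo1, Wnt2b, Sfrp1, Wnt9a, Fzd1, Fzd2, Wnt5b and Rspo3. This is 8 of 33, where 7.11% of all tested genes were selective for eWAT. Rspo3 was no longer selective without any 1 brown library, iWAT 1, eWAT 2 or eWAT 3, which is 9 of the 12 fits that leave out 1 library. Dkk2 and Wnt6 were selective for iWAT, where 11.5% of all tested genes were. Wnt6 was no longer selective without iBAT 1, scBAT 1, scBAT 3, iWAT 1, iWAT 3 or any eWAT library. No member was selective for iBAT (0.0201% of all genes) or scBAT (0.0604%). The pairwise fits behind this rule called 63% (iBAT minus iWAT), 53.7% (iBAT minus eWAT), 61.6% (scBAT minus iWAT) and 51.9% (scBAT minus eWAT) of all tested genes.

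Sfrp1, which binds Wnt ligands, was at 27.5, 32.9 and 27.6 CPM in eWAT, 7.84, 10.4 and 6.42 CPM in iWAT, 4.40, 5.54 and 7.04 CPM in iBAT and 5.16, 7.56 and 6.09 CPM in scBAT. Only eWAT stood clear of the others, at an iWAT minus eWAT difference of -1.84 (SE 0.23, adjusted p = 0.00131). Fzd1 was at 53.3, 56.1 and 58.8 CPM in eWAT, 31.5, 39.4 and 23.1 CPM in iWAT, 21.3, 23.3 and 24.9 CPM in iBAT and 22.4, 21.6 and 26.5 CPM in scBAT, with a difference of -0.84 (SE 0.17, adjusted p = 0.00919). Fzd2 was at 10.9, 8.41 and 8.59 CPM in eWAT, 3.55, 4.23 and 2.67 CPM in iWAT, 1.96, 3.25 and 1.81 CPM in iBAT and 2.55, 2.02 and 1.90 CPM in scBAT. Both Frizzled genes were clear of the other depots in every eWAT library, and the Fzd2 difference was -1.42 (SE 0.27, adjusted p = 0.00715). With iWAT 1 and 3 left out, neither Fzd2 (adjusted p = 0.0989) nor Wnt9a (0.0795) was called in iWAT minus eWAT or selective for eWAT.

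Wnt9a was at 10.8, 9.28 and 11.1 CPM in eWAT, 2.50, 5.11 and 1.84 CPM in iWAT, 4.03, 4.40 and 2.58 CPM in iBAT and 2.86, 2.63 and 3.36 CPM in scBAT (iWAT minus eWAT -1.73, SE 0.35, adjusted p = 0.00905). Wnt5b was at 4.26, 2.74 and 4.52 CPM in eWAT, 1.30, 1.10 and 1.48 CPM in iWAT, 0.550, 0.637 and 0.711 CPM in iBAT and 0.745, 1.01 and 0.634 CPM in scBAT (-1.56, SE 0.27, adjusted p = 0.00535). All eWAT libraries were the highest for both ligands, and Wnt5b was also higher in each iWAT library than in any brown one. Rspo3, known for its role in blood vessel growth, was at 1.99, 2.50 and 3.01 CPM in eWAT, 0.844, 0.308 and 1.19 CPM in iWAT, 0.611, 0.765 and 0.711 CPM in iBAT and 0.932, 1.18 and 1.33 CPM in scBAT. Its difference of -1.66 (SE 0.40, adjusted p = 0.0162) was not called without iWAT 1 (adjusted p = 0.0604) or eWAT 3 (0.0573).

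**Figure D4:**
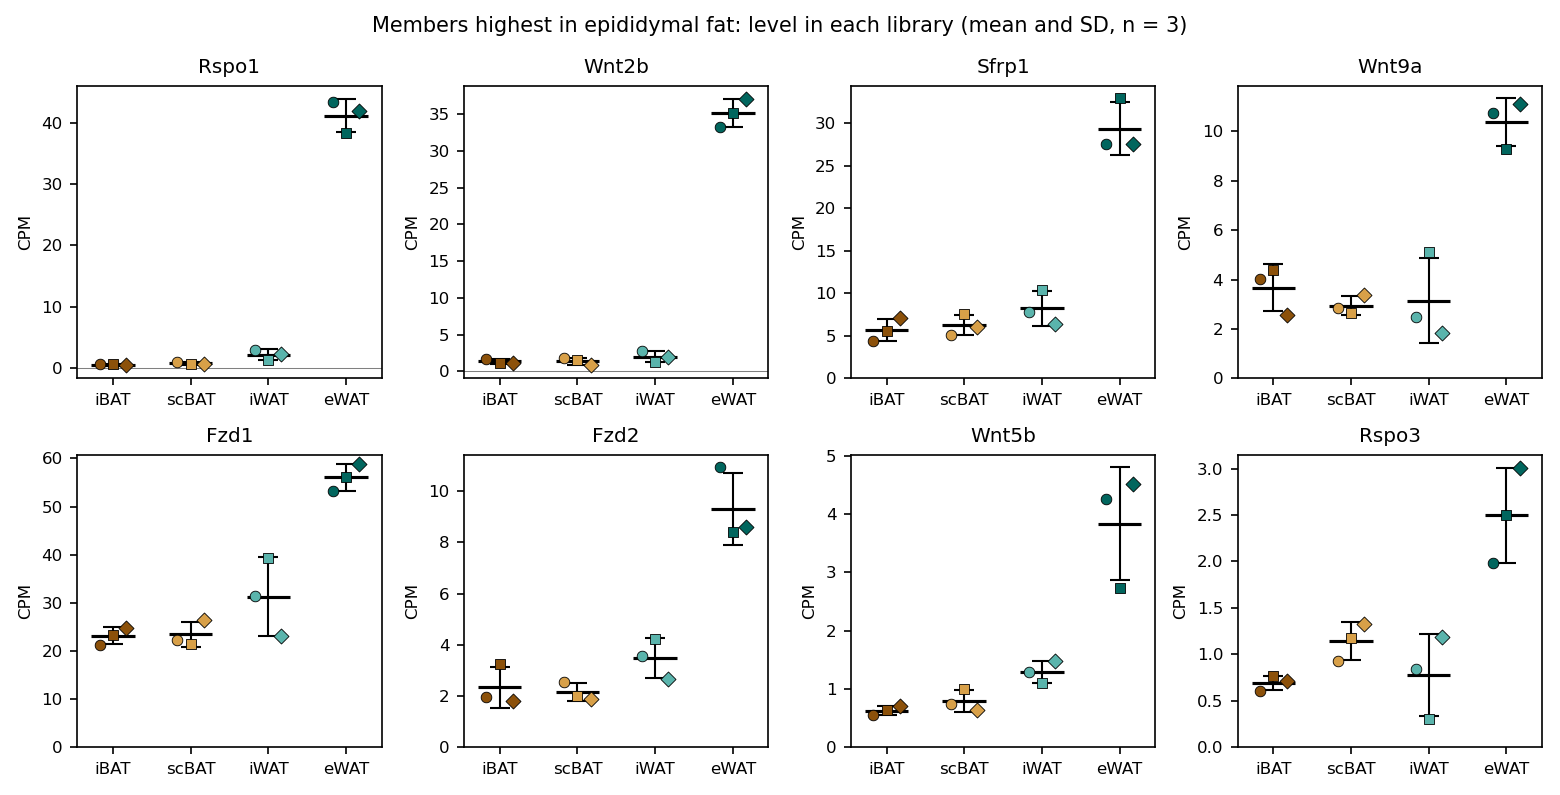
CPM of the 8 members selective for eWAT in each library (points; circle, square and diamond are libraries 1, 2 and 3), with the mean (bar) and SD of each depot, n = 3. In each panel the 3 eWAT libraries are above the other 9, most widely for Rspo1 and Wnt2b.

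Mesothelial cells, which line the abdominal cavity and cover epididymal fat, were marked by a list of 9 genes, 8 of which had a row. Their sum was 455.9 to 566 CPM in eWAT and 8.22 to 14.9 CPM in every other library, and all 8 were called lower in iWAT than in eWAT. Of the 8 markers, Upk3b, Upk1b, Wt1 and Bnc1 had 0 counts in both brown depots. The others had counts in brown fat, and Lrrn4 had a mean of 8.31 CPM in iBAT, 9.39 CPM in scBAT and 3.84 CPM in iWAT. The part of mesothelial cells in the 8 eWAT members was not tested. Rspo1 and Wnt2b were the members with the widest gap between eWAT and the rest.

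Dkk2, which binds Lrp5 and Lrp6, was the clearest iWAT member, with the values given above: each iWAT library was higher than every library of the other depots. Its iWAT minus eWAT difference was 2.24 (SE 0.44, adjusted p = 0.00785). In the edgeR fit of iWAT and eWAT alone Dkk2 was not called (adjusted p = 0.0879). Dkk2 was highest, at 8.36 CPM, in iWAT 2, which had the fewest lymphocyte markers of the iWAT libraries. The part of any cell type in its iWAT level was not tested. Wnt6 was at 1.76, 0.572 and 1.09 CPM in iWAT, 0.426, 0.397 and 0.251 CPM in eWAT, 0.183, 0.510 and 0.388 CPM in iBAT and 0.435, 0.504 and 0.317 CPM in scBAT. It was nearly level with the other depots in iWAT 2. Its difference of 1.67 (SE 0.46, adjusted p = 0.0252) was not called without iWAT 1, iWAT 3 or any eWAT library (adjusted p of 0.0599 to 0.114), nor with iWAT 1 and 3 both left out (0.69, adjusted p = 0.639).

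Several sparse members followed the uneven iWAT libraries. Wnt10a, known from hair, tooth and skin development, was at 2.004, 0.132 and 3.03 CPM in iWAT 1, 2 and 3. In iBAT it had a single count (1), and 0 counts in either scBAT or eWAT. Over the floor of 3 counts per depot, iWAT was at least 30.9-fold higher than scBAT and at least 53.0-fold higher than eWAT. Wnt3 was at 0.176, 0 and 0.428 CPM in iWAT and had 0 counts in the other 9 libraries. Wif1 was at 1.23, 0.440 and 1.74 CPM in iWAT, against at most 0.224 CPM elsewhere, and Fzd10 was at 3.76, 0.264 and 3.39 CPM in iWAT and at most 0.972 CPM elsewhere. All 4 were lowest in iWAT 2 among the iWAT libraries, as were the summed B cell markers (1540, 89.7 and 2121 CPM), T cell markers (1102, 74.6 and 1729 CPM) and lymph node stroma markers (295, 21.8 and 397 CPM). Summed surface and gland epithelium markers, at 7.14, 1.14 and 9.15 CPM, were also lowest in iWAT 2. The part of lymph node or epithelial cells in these values was not tested. Fzd10 was called lower in brown fat (-3.22, SE 0.73, adjusted p = 0.00245), and with iWAT 1 and 3 left out it was not (adjusted p = 0.0520).

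**Figure D5:**
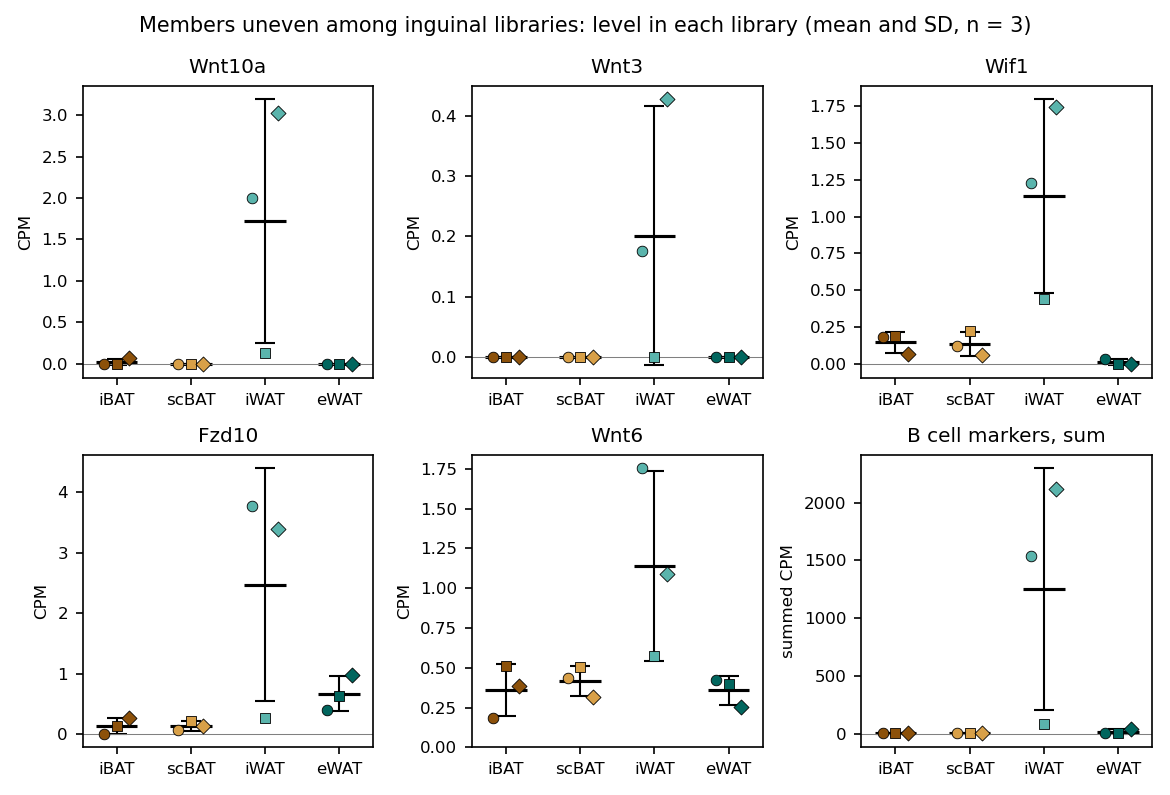
CPM of Wnt10a, Wnt3, Wif1, Fzd10 and Wnt6 and the summed CPM of 9 B cell markers in each library (points; circle, square and diamond are libraries 1, 2 and 3), with the mean (bar) and SD of each depot, n = 3. In every panel the square of iWAT, library 2, is the lowest of the 3 iWAT points.

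Wnt6 and Wnt10a are neighbours 6.19 kb apart on chromosome 1, on the same strand, and both were highest in iWAT. The other member pairs under 100 kb apart were Wnt10b and Wnt1 (11.7 kb), Wnt3a and Wnt9a (16.2 kb) and Wnt9b and Wnt3 (24.3 kb). In the first of these Wnt10b totalled 358 counts and Wnt1 12, and in the second Wnt3a had 0 counts and Wnt9a 1455. Wnt3 had counts in iWAT only (18), whereas its neighbour Wnt9b had the highest mean in eWAT (0.329 CPM, against 0.213 CPM in iWAT). Wnt7b, far from these, had 22 counts in eWAT and 0 in the other 9 libraries, at least 7.01-fold above iWAT.

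Wnt4, a ligand used in kidney and female reproductive tract development, did not sort by fat type. It was at 0.244, 0.255 and 0.581 CPM in iBAT, 2.30, 1.79 and 0.634 CPM in scBAT, 0.141, 0.176 and 0.132 CPM in iWAT and 0.639, 1.19 and 3.70 CPM in eWAT. It was lowest in iWAT, at an iWAT minus eWAT difference of -3.60 (SE 0.75, adjusted p = 0.0102), and scBAT was above iWAT by 3.36 (adjusted p = 0.00318). Summed markers of surface and gland epithelium were 19.7, 53.0 and 3.11 CPM in scBAT, 55.1, 36.3 and 190.9 CPM in eWAT and at most 9.15 CPM in iBAT and iWAT, and 3 of the 5 tested were called lower in iWAT than in eWAT. Their part in the Wnt4 values was not tested. With iWAT 1 and 3 left out, the difference between white depots was not called (adjusted p up to 0.184 over all alternatives). Lgr6 and Fzd7 were lower in iWAT than in eWAT, at -2.74 (SE 0.86, adjusted p = 0.0383) and -0.78 (SE 0.21, adjusted p = 0.0240). The Lgr6 call was lost without any 1 of the 6 white libraries (adjusted p of 0.0597 to 0.168), with the replicate block (0.0582), in limma-voom (0.248) and with iWAT 1 and 3 left out (0.646). The Fzd7 call was lost without iWAT 1, iWAT 3 or any eWAT library (adjusted p of 0.0599 to 0.0913), and with iWAT 1 and 3 left out it was at -0.29 (0.390).

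A further list of 66 Wnt pathway genes, from secretion to the nucleus, gives the setting of the members, and 59 of them were tested. In brown minus white 7 were higher and 30 lower (62.7% called, against 69.4% of all genes). Dvl3, which relays the signal from Frizzled, was at 56.2 to 67.2 CPM in brown and 21.3 to 25.8 CPM in white libraries (1.38, SE 0.06, adjusted p = 4.74e-08). Gsk3a, a kinase of the beta-catenin destruction complex, was higher by 1.11 (SE 0.06, adjusted p = 1.08e-07), with 28.3% of its exons under a gene on the other strand. Celsr3 of the polarity branch was higher by 1.73 (SE 0.17, adjusted p = 6.9e-06). Among the lower genes, Apcdd1, a membrane inhibitor of Wnt signaling, was at 11.7 to 27.5 CPM in brown, 152, 241 and 63.4 CPM in iWAT and 315 to 367 CPM in eWAT (-3.77, SE 0.30, adjusted p = 1.42e-06). Wisp2, a secreted protein of adipose progenitors, was also lower, at -4.12 (SE 0.40, adjusted p = 6.92e-06).

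All 5 tested genes listed as usual targets of beta-catenin (Ccnd1, Myc, Wisp1, Wisp2 and Cd44) were lower in brown fat, with no overlap between brown and white libraries. Of all tested genes, 38.1% were called lower and 45.1% did not overlap in either direction. The listed targets respond to many signals, and Myc, Ccnd1, Wisp1 and Cd44 were each lowest in library 2 among the iWAT libraries, as were the lymphocyte markers. Axin2, a feedback inhibitor and widely used readout of the pathway, was not called in brown minus white. It was at 28.1 to 42.2 CPM in brown, 24.5, 15.0 and 25.2 CPM in iWAT and 48.6, 45.9 and 28.9 CPM in eWAT, and was lower in iWAT than in eWAT (-0.93, SE 0.24, adjusted p = 0.0198).

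In iWAT minus eWAT, 10 of the 59 were higher and 14 lower (40.7% called, against 28.7% of all genes). The transcription factors Lef1 (7.47, SE 1.14, adjusted p = 0.00348) and Tcf7 (6.27, SE 0.93, adjusted p = 0.0032), both also made by T cells, led the higher genes. Lef1 was at 64.9, 3.48 and 109 CPM and Tcf7 at 239, 14.4 and 356 CPM in iWAT 1, 2 and 3, and both were under 3 CPM in every library of the other depots. Gpc3, a surface proteoglycan, was at 67.5 to 77.2 CPM in eWAT and 3.85 to 16.3 CPM in iWAT, a difference of -2.84 (SE 0.40, adjusted p = 0.00259). In the fit of iWAT and eWAT alone, only 1 of the 59 was called higher and 0 lower, so neither Gpc3 nor Axin2 was called there. In scBAT minus iBAT 0 of the 59 were called.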

How the data were processed

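RNA sequencing libraries of 4 mouse adipose depots, 3 per depot, were analysed from 1 deposited table of raw counts, whole reads per gene symbol and library. Per the submitters' processing notes, the tools were STAR 2.4.2a, HTSeq 0.6.1p1, Picard 1.119, bcl2fastq 1.8.3 and edgeR, and the genome build was mm10. The annotation and strand setting are not given in the sources used here, so reads of genes that overlap on opposite strands cannot be told apart. Groups were taken from the labels. Library pairs of a depot differed by more than sampling noise (chi-square per degree of freedom 6.59 to 408), which technical spread can also give. Each library was entered as 1 replicate, though the labels do not say whether they are independent.

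Genes were filtered with filterByExpr on depot, which left 14898 genes holding at least 99.7% of each library's counts. All 12 libraries entered 1 fit with a mean per depot in edgeR 4.0.16 (R 4.3.3, TMM scaling, robust quasi-likelihood F test, 8 residual degrees of freedom). P-values were Benjamini-Hochberg adjusted over all tested genes of each of 7 contrasts, with a threshold of 0.05. CPM values use the TMM factors. Folds of sparse genes use a floor of 3 counts over the depot, or a ratio with a 95% exact (Clopper-Pearson) interval, and both cover counting error only. Alternatives were DESeq2 1.42.0 size factors, upper quartile scaling, no filter, the DESeq2 Wald test, limma-voom (limma 3.58.1), the replicate number as a block, leaving out each library or iWAT 1 and 3, and fits of only the depots compared.

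Values in every library were to be given for tested members with a depot mean of at least 5 CPM that passed the threshold, at most 10 per contrast and direction, and for members selective for a depot. Of the other pathway genes, at most 3 per contrast and direction were named. The members and all gene lists were chosen with earlier results of these data known. Positions and exon lengths come from GENCODE M21 on GRCm38, in which 47 of 47 members had 1 record, and promoters from RefSeq. Opposite-strand genes overlap exons of Fzd5, Fzd6, Rspo3, Sfrp2, Wnt11, Wnt5a and Wnt7b. The fit was tested on simulated data, in which 50 genes drawn from these libraries' means were changed 2-fold. Of the 50 changed 2-fold, 43 were recovered in brown minus white, 30 in scBAT minus iBAT and 20 in iWAT minus eWAT. The recovered numbers were not split by count level or checked against the unequal spread of the depots.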

Additional observations from a re-analysis of the deposited data

How the results depend on the processing

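Of the 37 called differences of members, 23 kept their call in every alternative, 14 lost it in at least 1, and 0 reversed. Without the filter on low counts, 5 members were called higher in iWAT minus eWAT and 4 were selective for iWAT. Limma-voom called 5 other pathway genes higher in iWAT minus eWAT. With iWAT 1 and 3 left out, 1 member (Sfrp4, adjusted p = 0.0441) and 1 other pathway gene were called higher in scBAT minus iBAT, and 7 members were lower in iWAT minus eWAT, with 4 other pathway genes higher and 2 lower. Here the lone iWAT library is assumed to vary like the other groups. A fit of only the depots compared called 1 other pathway gene higher in scBAT minus iBAT. For iWAT minus eWAT such a fit called 0 members higher and 3 lower, and 1 other pathway gene higher and 0 lower. It rests on 6 libraries in place of 12 and takes its spread from the white depots alone. The fit of all 12 also draws on the brown depots, whose spread was smaller than that of either white depot.

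Leaving out 1 library at a time, brown minus white gave 5 to 7 members higher and 16 to 21 lower, and 6 to 9 other pathway genes higher and 28 to 37 lower. In scBAT minus iBAT it gave 0 members in either direction and 0 to 1 other pathway genes higher (1 without iWAT 2). In iWAT minus eWAT it gave 1 to 5 members higher and 8 to 21 lower, and 3 to 23 other pathway genes higher and 4 to 23 lower. The highest value of each of these counts came without iWAT 2. Members called higher numbered 4 without any 1 brown library and 1 without iWAT 1 or iWAT 3. Other pathway genes called higher fell to between 3 and 5 without iWAT 1, iWAT 3 or any eWAT library, and those called lower to between 4 and 6. The lower ones numbered 9 without iBAT 1, iBAT 2 or scBAT 3. Members selective for iWAT numbered 1 to 5 (5 without iWAT 2, 4 without scBAT 2, 1 without iWAT 1 or iWAT 3) and those selective for eWAT 7 to 15 (15 without iWAT 2). Without the filter, and in the fits without a library other than iWAT 1 or iWAT 3, those selective for iWAT included Wif1, at times with Wnt10a, which the fit reported did not test.

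Libraries with the same replicate number did not deviate together (r of -0.18 to 0.23, above 0.1 in 5 of 18 pairs, 3 of 12 libraries closest to their own number). These deviations also hold differences in tissue content, such as the B cell markers of iWAT. Whether a number stands for 1 mouse is therefore not known. With the replicate block, 9 other pathway genes were lower in iWAT minus eWAT in place of 14, and the calls of Lrp5 (brown minus white) and Lgr6 (iWAT minus eWAT) were lost. Depth limits the sparse members most: 14 could not be tested, and 1 count was worth 0.0314 to 0.0646 CPM. The median of all genes in brown minus white was -0.11 with TMM scaling, -0.09 with DESeq2 size factors and -0.17 with upper quartile scaling, and members were 5 higher and 18 to 20 lower under these.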
